A study of Homo sapiens with 12 samples.

Results

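The genes described here are 50 DNA repair genes of 6 pathways, taken by symbol from a table of 60664 genes measured by RNA sequencing in MDA-MB-231, a long-used human line of triple-negative breast cancer cells. They comprise 15 end joining genes, 16 homologous recombination genes, 3 Fanconi genes, 2 mismatch repair genes, 5 nucleotide excision repair genes and 9 base excision repair genes. They were grouped by pathway. The question for each gene was whether its RNA differed after oxygen deprivation, or after loss of CCAR2, from its RNA in unperturbed cells. Of the 50 genes, 12 were higher and 9 lower in hypoxia, where 11.6% and 12% of all genes tested were. In CCAR2 knockout cells none was higher and 17 were lower, where 14.9% and 15.4% of all genes tested were.

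The pathways divide the work by type of lesion. End joining seals broken DNA ends directly, whereas homologous recombination copies the missing sequence from an intact sister chromatid and is used mostly in S and G2 phase. The Fanconi pathway unhooks crosslinks between the strands, mismatch repair corrects copying errors, nucleotide excision repair removes bulky and ultraviolet-induced lesions as a short stretch of bases, and base excision repair replaces single damaged bases. In tumor cells short of oxygen, lower expression of some recombination and mismatch repair genes is a known response, and CCAR2, whose protein is also called DBC1, is known as an inhibitor of SIRT1 that takes part in the response to DNA damage.

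The 12 libraries fell into 3 groups of 4. WT normoxia consisted of untreated wildtype cells, and WT hypoxia of wildtype cells held at 1% O2 for 24 hr. CCAR2 KO consisted of cells kept in normoxia in which CCAR2 had been disrupted with a lentiviral CRISPR/Cas9 vector. Whether the knockout cells were a clone or a pool is not given in the sources used here. The methods speak of biological replicates but give other numbers of them than the 4 libraries labelled per group. Which libraries came from separate cultures is therefore unknown, and a p-value measures the spread between these libraries, which may be technical in part. Knockout cells in hypoxia were not among the groups, and both comparisons with WT normoxia share its 4 libraries.

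Estimated counts summed to 153904088 to 213743693 in the WT normoxia libraries, 76384973 to 195621872 in WT hypoxia and 68599412 to 152328450 in CCAR2 KO. The smallest count of any repair gene in any library was 518, for ERCC4. CCAR2 RNA was 144, 145, 146 and 151 CPM, counts scaled to the same library size, in WT normoxia and 54.7, 56.7, 61.3 and 58.5 CPM in CCAR2 KO, a log2 fold change of -1.34 ± 0.04 (SE, adjusted p = 2.1e-09), so its counts were reduced. Of its exonic bases, 38.2% overlap other genes on the opposite strand, and how much of the remaining count belongs to those genes was not tested. All 20 genes of a list of hypoxia targets were higher in WT hypoxia, with a median log2 fold change of 1.27, and CA9 rose from at most 0.0948 CPM to at least 4.43 CPM. Markers of this line were present, with VIM at 4410 CPM or more and CD44 at 524 CPM or more, while SPARC reached only 2.01 CPM. The epithelial and hormone receptor genes CDH1, ESR1 and PGR stayed at or below 0.47 CPM, GATA3 lay between 4.83 and 8.21 CPM and ERBB3 between 7.58 and 13.6 CPM, and the summed level of 9 markers of blood, vessel and fibroblast cells was 2.87 to 3.96 CPM in WT normoxia, 3.7 to 5.4 CPM in WT hypoxia and 5.95 to 7.18 CPM in CCAR2 KO. The sums of the knockout did not overlap with those of normoxia, and 2 of the 3 markers tested were higher in it, PECAM1 at a mean of 5.51 against 2.56 CPM and CD14 at 0.939 against 0.592 CPM. The part of these markers in the repair gene values was not tested.

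Repair genes differed far more from each other than between conditions. Levels of different genes were compared as CPM per kilobase of exon, averaged over the 4 WT normoxia libraries. XRCC6, which with XRCC5 forms the Ku ring that slides onto broken ends, was the highest at 182 ± 3.88 (SD) CPM per kb. The endonuclease gene ERCC4 was the lowest at 0.87 ± 0.0421 CPM per kb, a ratio of 209, and the median of the 50 genes was 5.53. Base excision repair genes were among the most abundant, with the abasic site endonuclease gene APEX1 at 117 ± 7.41 CPM per kb and the flap endonuclease gene FEN1 at 84.4 ± 4.29, but the ligase gene LIG3 was at 2.89 ± 0.20. Within end joining the lowest gene was MDC1, a scaffold at marked chromatin, with 1.08 ± 0.123 CPM per kb. Homologous recombination genes spanned a narrower range, from 2.08 ± 0.26 for BRCA2, which loads the recombinase, to 16.2 ± 0.992 for NBN, a subunit of the MRN break sensor. The Fanconi genes ran from FANCD2 at 4.04 ± 0.139 to FANCI at 11.4 ± 0.631, the partners of one monoubiquitinated clamp. PMS2 was at 2.45 ± 0.119 and MSH6 at 8.53 ± 0.266, and the TFIIH helicase gene ERCC2 was the highest of nucleotide excision repair at 25.2 ± 0.85. The coefficient of variation between replicate libraries had a median over the 50 genes of 5.49% in WT normoxia, 5.84% in WT hypoxia and 5.07% in CCAR2 KO.

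**Figure D1:**
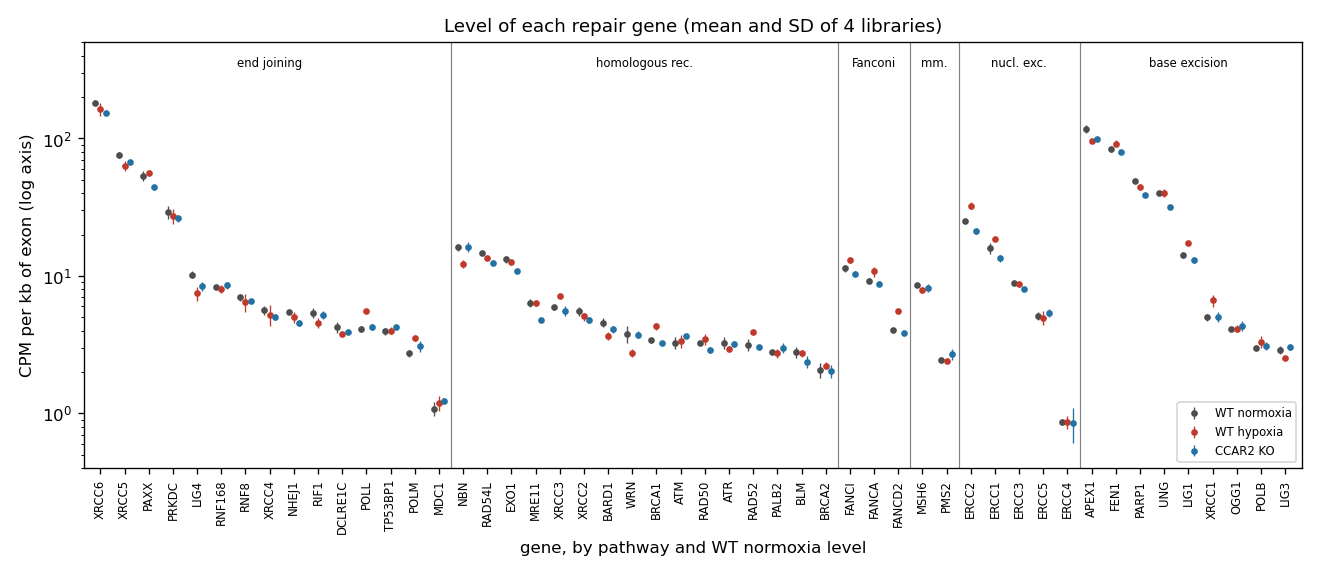
Each gene's level in CPM per kilobase of exon on a log axis, ordered within its pathway by the WT normoxia level. Points are means of 4 libraries with SD bars, in grey for WT normoxia, red for WT hypoxia and blue for CCAR2 KO. XRCC6 at 182 and APEX1 at 117 CPM per kb stand at the top in WT normoxia and ERCC4 at 0.87 at the bottom, and the 3 points of most genes lie close together.

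The promoters of 4 genes are shown because their genes carried the extreme changes described next: among the 50, FANCD2 and POLL had the largest increases in hypoxia, LIG4 fell in hypoxia and in CCAR2 KO, and MRE11 had the largest decrease in CCAR2 KO. The sequences are from RefSeq on GRCh38.p14 and run 5′ to 3′ on the strand of the gene, from 250 bases before the RefSeq start, without bases that the GENCODE v29 annotation places inside the gene. They are chr3:10026187-10026413 on the plus strand for FANCD2, chr10:101588271-101588520 on the minus strand for POLL, chr11:94493909-94494094 on the minus strand for MRE11 and chr13:108218369-108218599 on the minus strand for LIG4. The genes themselves span 10026414 to 10101930 on chromosome 3 (FANCD2, ENSG00000144554), 101578882 to 101588270 on chromosome 10 (POLL, ENSG00000166169), 94415578 to 94493908 on chromosome 11 (MRE11, ENSG00000020922) and 108207439 to 108218368 on chromosome 13 (LIG4, ENSG00000174405). Capitals mark each match, on either strand, to ACTTCCG, a word bound by ETS family factors, or to ACGTG, the core word of hypoxia response elements.
FANCD2: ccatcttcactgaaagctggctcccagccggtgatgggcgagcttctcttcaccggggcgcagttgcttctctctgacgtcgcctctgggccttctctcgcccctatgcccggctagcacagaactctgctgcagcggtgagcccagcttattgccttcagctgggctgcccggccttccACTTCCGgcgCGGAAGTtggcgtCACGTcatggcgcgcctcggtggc
POLL: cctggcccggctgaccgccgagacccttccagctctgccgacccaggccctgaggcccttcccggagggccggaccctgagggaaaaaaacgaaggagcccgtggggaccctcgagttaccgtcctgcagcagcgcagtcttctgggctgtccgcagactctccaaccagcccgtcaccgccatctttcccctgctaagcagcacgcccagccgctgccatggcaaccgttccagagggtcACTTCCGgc
MRE11: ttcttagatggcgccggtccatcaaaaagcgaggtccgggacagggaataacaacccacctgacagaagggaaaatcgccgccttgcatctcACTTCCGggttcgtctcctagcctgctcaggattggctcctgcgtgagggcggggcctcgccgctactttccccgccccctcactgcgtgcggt
LIG4: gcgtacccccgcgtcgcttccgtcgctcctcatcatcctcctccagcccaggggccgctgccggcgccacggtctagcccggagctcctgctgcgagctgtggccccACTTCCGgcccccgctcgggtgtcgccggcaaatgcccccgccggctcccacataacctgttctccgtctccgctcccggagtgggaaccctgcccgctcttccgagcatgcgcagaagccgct
Each of the 4 held ACTTCCG at least once, beginning 9 bases before the RefSeq start in POLL, 158 bases in MRE11 and 143 bases in LIG4. FANCD2 held it on both strands, at 70 and 60 bases before the start, and also held the only ACGTG match of the 4, at 47 bases. Over the 44 members with an entry in the table, 13 promoters, or 29.5%, held ACTTCCG within 250 bases before the start, against 6.0% of all 27305 promoters. That word was searched for after these promoters had been read, so the 2 shares describe them and are not a test. The 27305 promoters were not limited to expressed genes. ACGTG was in 11 of 44 member promoters, or 25%, against 18.7% of all promoters. It was in 3 of 11 promoters of genes that were higher in hypoxia and in 2 of 6 of those that were lower. CCAAT was in 45.5% of member promoters and 33.0% of all promoters, and an E2F word (TTTGGCGC or TTTCCCGC) in 2.3% and 2.0%. All words were searched for on both strands, and a match is a description of the letters and not of binding. For these counts each window was used whole, from 1 RefSeq start per gene. Bases inside the GENCODE v29 gene were left out only of the 4 printed sequences. Some counted windows, among them those of ERCC1, RAD52 and XRCC1, lie within the gene in that annotation.

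In hypoxia the repair genes moved in both directions. All 50 passed the filter on low counts in every comparison. At an adjusted p under 0.05, 12 genes or 24.0% were higher in WT hypoxia than in WT normoxia, against 11.6% of all 21776 genes tested, and 9 genes or 18.0% were lower, against 12% of all genes. Each repair gene had a count of 518 or more in every library, whereas all genes tested include genes with much lower counts. Among the 17658 genes with at least 10 counts in every library, 2876 were higher and 2571 lower. The part of count level in these shares was not tested. No repair gene passed an absolute log2 fold change of 0.5 as well, a rule that took 5.83% of all genes as higher and 1.43% as lower. Before adjustment, p was under 0.05 for 12 genes that were higher and 13 that were lower, a count not taken over all genes. The log2 fold changes ran from -0.47 to 0.44 with a median of -0.03, beside 0.01 for all genes tested. In each of the 21 genes that passed, the CPM of the 2 groups did not overlap. The same libraries gave the test, and such separation was not counted over all genes. The genes that rose included all 3 Fanconi genes, 3 of 16 in homologous recombination, 2 of 15 in end joining, 2 of 5 in nucleotide excision repair and 2 of 9 in base excision repair. Among 18 further Fanconi genes of a wider list described below, 5 were higher and 4 lower, so the rise was not shared by the wider pathway. The members that fell are given next. They were 3 in homologous recombination, 3 in end joining and 3 in base excision repair.

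**Figure D2:**
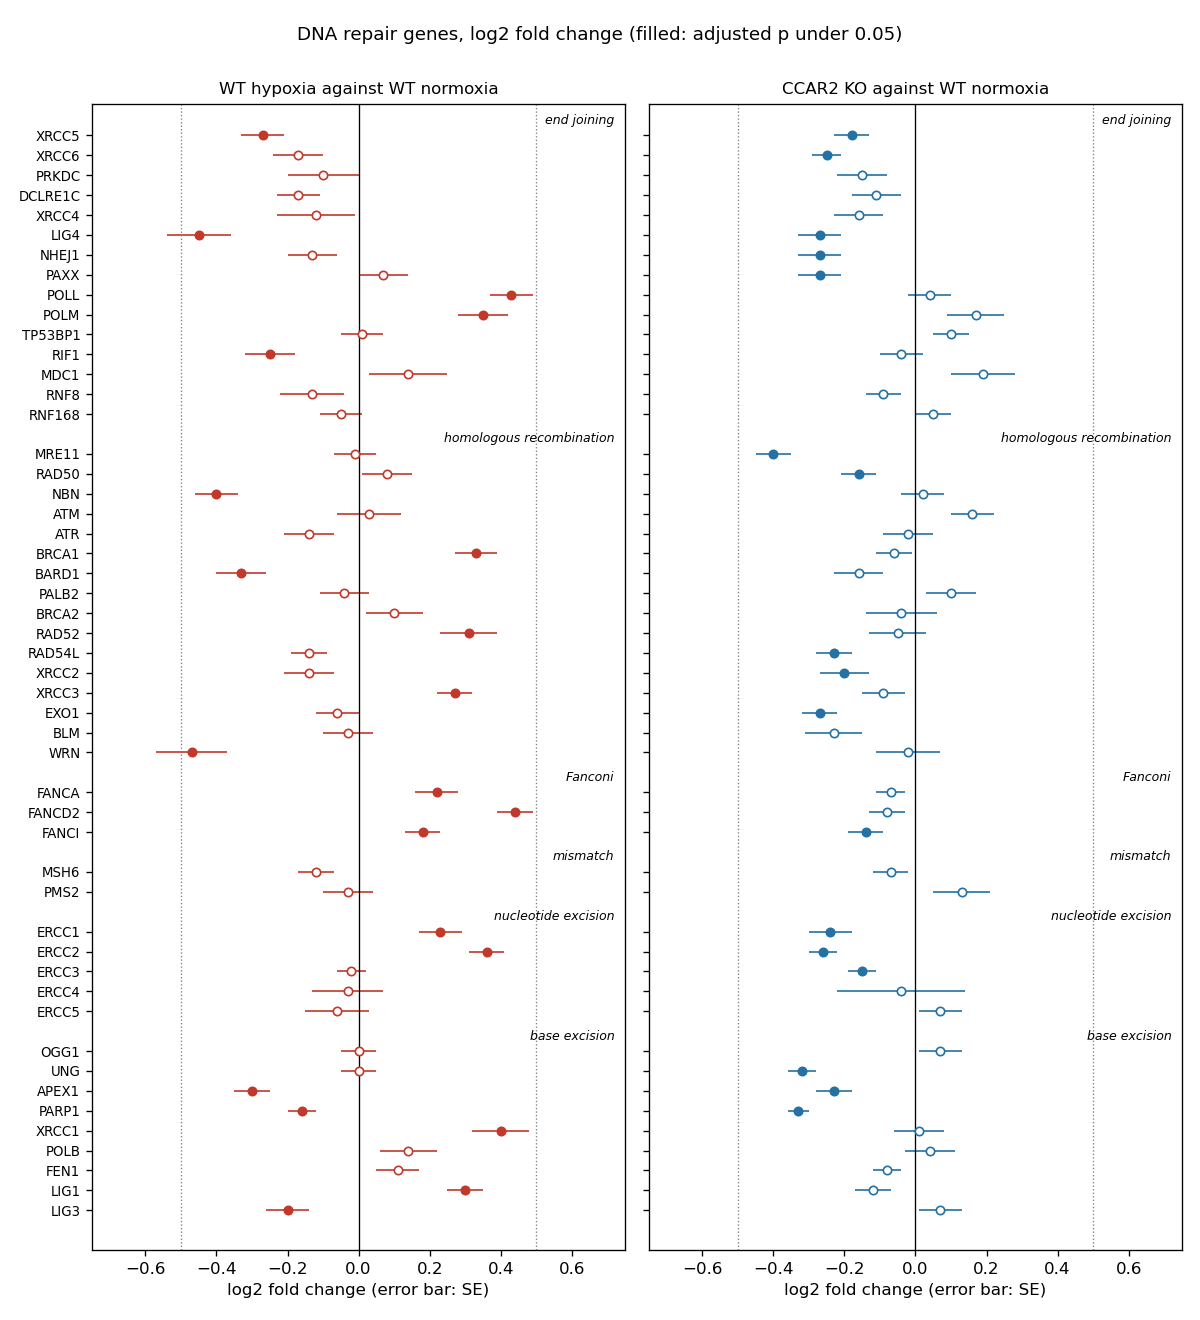
Log2 fold change of each of the 50 genes, by pathway, for WT hypoxia against WT normoxia (left) and CCAR2 KO against WT normoxia (right). Bars are standard errors, filled points have an adjusted p under 0.05 and dotted lines mark 0.5 in either direction. Filled points lie on both sides of 0 on the left, 12 above and 9 below, and all 17 filled points on the right lie below 0.

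Within end joining, the gap-filling polymerases and the ligase moved in opposite directions. POLL, a polymerase that fills short gaps at joined ends, was at 21.0, 22.0, 23.1 and 23.5 CPM in the WT normoxia libraries and 29.7, 31.1, 29.9 and 30.4 CPM in WT hypoxia. Every hypoxia library was above every normoxia library, and the log2 fold change was 0.43 ± 0.06 (SE, n = 4 per group, adjusted p = 0.00046). Its relative POLM rose from 12.1, 11.6, 12.3 and 13.1 CPM to 15.0, 16.3, 15.4 and 16.3 CPM (0.35 ± 0.07, adjusted p = 0.00379). LIG4, the ligase that with XRCC4 closes the break, was at 47.5, 45.3, 44.6 and 41.2 CPM in normoxia and at 35.6, 34.7, 33.9 and 27.1 CPM in hypoxia. It fell by 27.0%, a log2 fold change of -0.45 ± 0.09 (adjusted p = 0.00351). XRCC5 fell from 437, 410, 420 and 393 CPM to 327, 388, 334 and 333 CPM (-0.27 ± 0.06, adjusted p = 0.0105), with WT hypoxia replicate 2 apart from the other 3 hypoxia libraries. RIF1, which protects ends from resection, also fell (-0.25 ± 0.07, adjusted p = 0.0299). The other 10 end joining genes did not pass the test, among them PRKDC at -0.10 ± 0.1 and XRCC6 at -0.17 ± 0.07. Leaving out WT hypoxia replicate 2 raised the number of lower repair genes from 9 to 14, as XRCC6, XRCC4, NHEJ1, RNF8 and MSH6 then passed. Over all genes tested the lower genes rose as well, from 2609 of 21776 to 3658 of 22586.

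The BRCA1 and BARD1 genes, whose proteins form one ubiquitin ligase, went in opposite directions in hypoxia. BRCA1 was at 33.1, 30.6, 31.0 and 30.6 CPM in normoxia and rose to 40.8, 38.3, 37.3 and 42.4 CPM (0.33 ± 0.06, adjusted p = 0.00182). BARD1 was at 30.9, 27.0, 26.6 and 26.7 CPM and fell to 22.9, 21.5, 23.9 and 20.6 CPM (-0.33 ± 0.07, adjusted p = 0.00612). Neither pair of groups overlapped. NBN fell from 108, 98.5, 96.2 and 94.7 CPM to 78.1, 82.4, 73.1 and 70.3 CPM (-0.40 ± 0.06, adjusted p = 0.00164), whereas its MRN partners MRE11 (-0.01 ± 0.06) and RAD50 (0.08 ± 0.07) did not pass. WRN, the helicase lost in Werner syndrome, had the largest decrease of all 50 genes. Its level was 24.7, 17.6, 22.1 and 20.9 CPM in normoxia, the widest relative spread of any member in that group, and 16.0, 14.2, 16.3 and 15.4 CPM in hypoxia (-0.47 ± 0.1, adjusted p = 0.00528). RAD52, a strand annealing protein gene, rose from 11.7, 14.5, 12.7 and 14 CPM to 16.1, 16.3, 16.5 and 17.2 CPM (0.31 ± 0.08, adjusted p = 0.014), and XRCC3, a recombinase paralog gene, rose by 20.5%. Of its exonic bases, 76.7% are shared with KLC1 on the other strand, and whether counting used strand is not given in the sources used here. BRCA2, PALB2, ATM, ATR, RAD54L, XRCC2, EXO1 and BLM did not pass, with log2 fold changes from -0.14 to 0.10.

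FANCD2 showed the largest increase of the 50 genes in hypoxia. It was at 35.0, 32.3, 34.3 and 33.7 CPM in normoxia and 49.7, 45.5, 44.5 and 45.4 CPM in hypoxia, a rise of 36.0% (0.44 ± 0.05, adjusted p = 0.00033). The groups were separated by more than the range within either of them. FANCA, a subunit of the core complex that modifies FANCD2, rose by 16.6% (0.22 ± 0.06, adjusted p = 0.0243) and FANCI by 13.5% (0.18 ± 0.05, adjusted p = 0.0317). FANCD2 has pseudogene copies with which reads may be shared. In nucleotide excision repair, ERCC2 rose from 159, 157, 167 and 168 CPM to 202, 198, 223 and 215 CPM (0.36 ± 0.05, adjusted p = 0.00087). ERCC1, the partner of the ERCC4 nuclease, rose by 17.4% (0.23 ± 0.06, adjusted p = 0.0218). On the opposite strand, CD3EAP overlaps 28.6% of the exonic bases of ERCC1 and ZNF276 overlaps 23.6% of those of FANCA. The other TFIIH helicase gene ERCC3 (-0.02 ± 0.04) and the nuclease genes ERCC4 (-0.03 ± 0.1) and ERCC5 (-0.06 ± 0.09) did not pass. Neither did the mismatch repair genes MSH6 (-0.12 ± 0.05) and PMS2 (-0.03 ± 0.07).

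Base excision repair held genes of both directions, with 2 higher and 2 lower among the 6 genes of gap filling and ligation alone. The glycosylase genes OGG1 and UNG, which remove the damaged base, had log2 fold changes of -0.00 ± 0.05 and 0.00 ± 0.05. APEX1, which cuts the backbone next, fell from 202, 233, 229 and 217 CPM to 179, 180, 177 and 184 CPM (-0.30 ± 0.05, adjusted p = 0.00264). XRCC1, the scaffold that gathers the later enzymes, rose from 16.0, 17.2, 17.9 and 18.1 CPM to 23.3, 19.7, 24.7 and 24.1 CPM (0.40 ± 0.08, adjusted p = 0.00429). Hypoxia replicate 2 was the lowest of those 4 and still above every normoxia library. LIG1, the ligase of long patches and of replication, rose from 87.0, 97.0, 93.8 and 92.9 CPM to 115, 110, 116 and 117 CPM (0.30 ± 0.05, adjusted p = 0.00171). LIG3, the ligase bound by XRCC1, fell by 13.2% (-0.20 ± 0.06, adjusted p = 0.0332) and PARP1, the nick sensor, fell by 10.8% (-0.16 ± 0.04, adjusted p = 0.0178). POLB and FEN1 did not pass, at 0.14 ± 0.08 and 0.11 ± 0.06.

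Several of the smaller hypoxia changes no longer passed when 1 library was left out, in fits that also have fewer libraries. Their log2 fold changes stayed on the same side of 0, from -0.24 to -0.18 for LIG3 and from -0.28 to -0.19 for RIF1. RIF1 no longer passed without WT normoxia replicate 1 or 4 or WT hypoxia replicate 4, with an adjusted p of up to 0.0912. FANCA was lost without normoxia replicate 2 or 3 or hypoxia replicate 3 or 4 (up to 0.0743), and FANCI without normoxia replicate 2, 3 or 4 or hypoxia replicate 4 (up to 0.0872). ERCC1 was lost without normoxia replicate 1 or 4 or hypoxia replicate 3 or 4 (up to 0.0701), and PARP1 without normoxia replicate 2 or 3 or hypoxia replicate 1 (up to 0.06). LIG3 was lost without normoxia replicate 1, 3 or 4 or hypoxia replicate 3 or 4 (up to 0.0958). The other 15 genes passed whichever library was left out, and none of the 21 changed direction. Of the 21, 12 passed under every alternative tried.

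**Figure D3:**
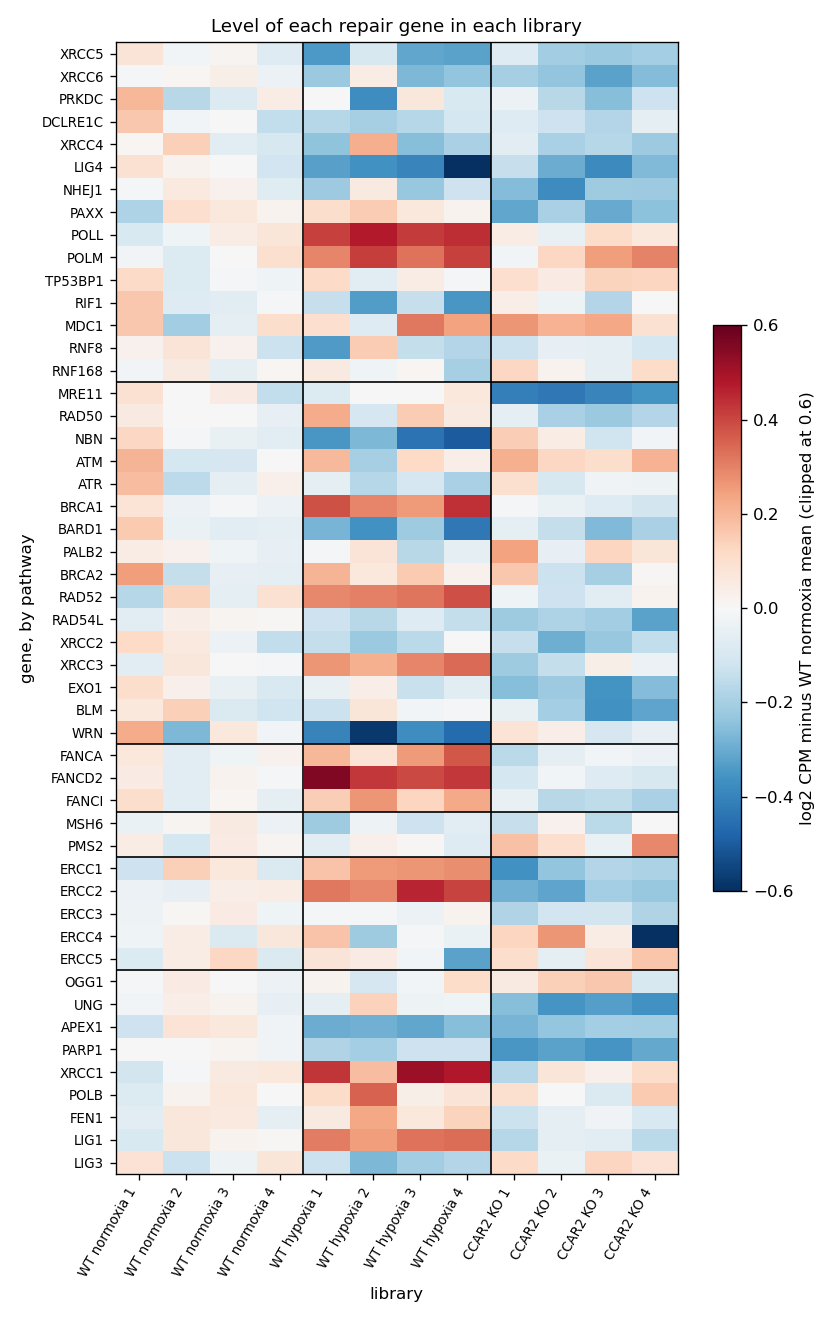
Heat map of the 50 genes (rows, by pathway) in the 12 libraries (columns), as log2 CPM minus the gene's WT normoxia mean, with the colour scale clipped at 0.6. FANCD2, POLL and XRCC1 are red and LIG4, NBN and WRN blue in the 4 WT hypoxia columns, and MRE11, UNG and PARP1 are blue in the 4 CCAR2 KO columns.

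The direction in hypoxia went with the base composition of the gene. GC content was taken from the longest transcript of each gene. The 12 higher genes had a median GC content of 56.0% (range 41.9 to 63.8), and the 9 lower genes a median of 38.9% (range 36.2 to 50.2). Across the 50 genes, which share libraries and are not independent replicates, the log2 fold change and GC content had a Pearson correlation of 0.57 and a Spearman correlation of 0.52. After each library's trend with GC content over all genes was removed, the correlations were 0.09 and 0.12. The corrected fit gave 9 higher and 8 lower genes, or 18.0% and 16.0%, against 9.7% and 11.7% of all genes tested. Of the 21, 15 passed in both fits. POLM (0.18, adjusted p = 0.0861), XRCC3 (0.07, adjusted p = 0.287), FANCA (0.11, adjusted p = 0.182), ERCC1 (0.11, adjusted p = 0.218), BARD1 (-0.16, adjusted p = 0.0933) and RIF1 (-0.07, adjusted p = 0.537) no longer passed. BRCA2 (0.29, adjusted p = 0.0204) and RAD54L (-0.22, adjusted p = 0.00541) passed only with the correction. FANCD2, at 44.0% GC, was 0.51 and so beyond the 0.5 rule, and BRCA1, at 41.9% GC, was 0.44. LIG4 was -0.27 (adjusted p = 0.0142), NBN -0.22 (adjusted p = 0.00325), WRN -0.31 (adjusted p = 0.0403) and POLL 0.31 (adjusted p = 0.00175). The correction also removes any biological trend with GC content, and the part of GC content in the uncorrected changes was not tested further.

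**Figure D4:**
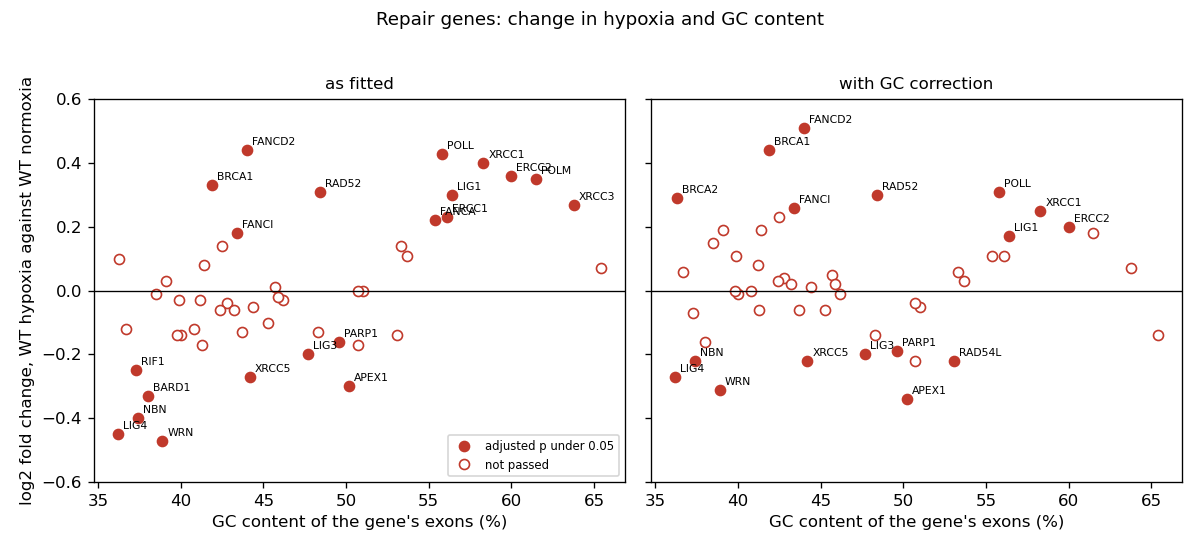
Log2 fold change in WT hypoxia against the GC content of each gene's longest transcript in percent (labelled on the axis as that of its exons), as fitted (left) and after the GC correction (right). Filled points are genes with an adjusted p under 0.05. On the left the lower genes gather at low GC content and most higher genes at high GC content, and on the right the correlation is 0.09 in place of 0.57.

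In CCAR2 KO cells the repair genes that passed were all lower. Compared with WT normoxia, none of the 50 was higher, against 14.9% of all 21410 genes tested, and 17 genes or 34.0% were lower, against 15.4% of all genes. Among the 17736 genes with at least 10 counts in every library, 3375 were higher and 3374 lower. No repair gene had an absolute log2 fold change of 0.5 as well, a rule that took 6.73% of all genes as higher and 2.94% as lower. Before adjustment, p was under 0.05 for 1 gene that was higher and 21 that were lower, again not counted over all genes. The median log2 fold change was -0.08, beside 0.01 for all genes tested, 36 of 50 values were below 0, and the range was -0.40 to 0.19. The lower genes were 5 of 15 in end joining, 5 of 16 in homologous recombination, 3 of 5 in nucleotide excision repair, 3 of 9 in base excision repair and 1 of 3 in the Fanconi pathway. The 5 in end joining were all among the 10 core genes, and none of the 5 genes of break signaling passed. Genes of DNA replication moved with them: 13 of 20 S phase genes were lower in CCAR2 KO (median -0.20), and their summed level was 2850 to 2940 CPM in WT normoxia, 2860 to 3040 CPM in WT hypoxia and about 2570 CPM in each CCAR2 KO library. A list of 20 G2 and mitosis genes, none at 0, summed to 5340 to 5840, 4510 to 4850 and 4940 to 5180 CPM, with 13 lower in CCAR2 KO and 13 lower in hypoxia. In bulk RNA, fewer cells in a phase and less RNA per cell cannot be told apart, and the part of cell cycle phase in the repair gene values was not tested.

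MRE11, the nuclease of the MRN complex, had the largest decrease of the 50 genes in CCAR2 KO. It was at 52.1, 48.9, 50.6 and 44.1 CPM in WT normoxia and at 36.7, 36.3, 37.2 and 38.1 CPM in CCAR2 KO, a decrease of 24.2% (-0.40 ± 0.05, adjusted p = 0.00012). The highest knockout library was below the lowest normoxia library. Its scaffold partner RAD50 was at 33.0, 31.8, 31.7 and 30.7 CPM and then 30.6, 27.8, 27.2 and 28.1 CPM (-0.16 ± 0.05, adjusted p = 0.0366). RAD50 shares 79.7% of its exonic bases with an overlapping gene on the same strand, AC116366.3, so its value is uncertain. NBN, the remaining subunit, was at 110, 102, 91.4 and 98.3 CPM in CCAR2 KO and did not pass (0.02 ± 0.06). EXO1, which resects ends further after MRE11, fell from 58.6, 55.6, 52.8 and 51.1 CPM to 45.6, 46.8, 42.5 and 45.4 CPM (-0.27 ± 0.05, adjusted p = 0.00159). RAD54L, a translocase that acts with the recombinase, fell from 44.9, 48.3, 47.4 and 47.2 CPM to 40.4, 41.3, 40.7 and 37.6 CPM (-0.23 ± 0.05, adjusted p = 0.0026). Of its exonic bases, 25.1% overlap LRRC41 on the opposite strand. XRCC2 also passed (-0.20 ± 0.07, adjusted p = 0.0314), although its groups overlapped. ATM, the break-activated kinase gene, was at 0.16 ± 0.06 and did not pass (adjusted p = 0.0834).

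Of the 10 core end joining genes, XRCC5, XRCC6, LIG4, NHEJ1 and PAXX were lower in CCAR2 KO and the other 5 did not pass. XRCC6 fell from 594, 605, 614 and 585 CPM to 522, 509, 480 and 500 CPM (-0.25 ± 0.04, adjusted p = 0.0005) and XRCC5 from 437, 410, 420 and 393 CPM to 393, 359, 355 and 360 CPM (-0.18 ± 0.05, adjusted p = 0.0108). Knockout replicate 1 was the highest of its group for both. LIG4 fell to 40.4, 36.3, 34.2 and 37.1 CPM (-0.27 ± 0.06, adjusted p = 0.00466). The accessory factor genes NHEJ1 and PAXX, which stabilize the paired ends, each fell by 16.9% (adjusted p = 0.00538 and 0.00517). NHEJ1 was at 16.9, 17.8, 17.4 and 16.2 CPM and then 14.3, 13.2, 14.7 and 14.7 CPM, and PAXX at 64.0, 78.1, 76.1 and 73.9 CPM and then 58.6, 63.6, 59.1 and 61.5 CPM. NHEJ1 shares 65.4% of its exonic bases with another gene on its strand. PRKDC, the catalytic kinase subunit, was at -0.15 ± 0.07 and did not pass, nor did XRCC4 (-0.16 ± 0.07), DCLRE1C, POLL or POLM.

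PARP1 and UNG were the most clearly separated base excision repair genes. PARP1 was at 354, 354, 357 and 349 CPM in WT normoxia and 277, 283, 276 and 286 CPM in CCAR2 KO, a decrease of 20.6% (-0.33 ± 0.03, adjusted p = 1.7e-05). Its replicates differed little, with coefficients of variation of 0.971% and 1.63%. UNG, which removes uracil, fell from 101, 105, 104 and 99.1 CPM to 85.7, 80.2, 81.5 and 79.7 CPM (-0.32 ± 0.04, adjusted p = 4.9e-05). APEX1 fell to 181, 187, 191 and 190 CPM (-0.23 ± 0.05, adjusted p = 0.00274). Of the nucleotide excision repair genes, ERCC2 fell to 133, 130, 141 and 139 CPM (-0.26 ± 0.04, adjusted p = 0.00045). ERCC1 fell from 80.9, 97.6, 92.3 and 83.2 CPM to 68.6, 74.9, 78.1 and 77.4 CPM (-0.24 ± 0.06, adjusted p = 0.0105), and ERCC3 fell by 9.71% (-0.15 ± 0.04, adjusted p = 0.0122). FANCI was at -0.14 ± 0.05 (adjusted p = 0.0434) with overlapping groups, while FANCA, FANCD2, MSH6 and PMS2 did not pass.

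In the knockout comparison the log2 fold change had a Pearson correlation of -0.02 with GC content across the 50 genes. With the GC correction all 17 genes still passed, 6 more were lower (BARD1, XRCC3, BLM, FANCA, FEN1 and LIG1), and ATM was higher (0.19, adjusted p = 0.0122). That made 46.0% of the members lower and 2.0% higher, against 18.2% and 15.9% of all genes tested in that fit. RAD50 no longer passed without WT normoxia replicate 1, 2 or 3 or CCAR2 KO replicate 2, 3 or 4 (adjusted p up to 0.0775). XRCC2 was lost without normoxia replicate 1 or 2 or knockout replicate 2 or 3 (up to 0.0804), and FANCI without normoxia replicate 1 or 3 or knockout replicate 2, 3 or 4 (up to 0.119). The other 14 genes passed under every alternative. Without WT normoxia replicate 1, ATM and TP53BP1 passed as higher, which made 2 higher genes, and without CCAR2 KO replicate 1 POLM did.

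Knockout and hypoxic cells were also compared directly. In this comparison the log2 fold change had a Pearson correlation of -0.54 with GC content across the 50 genes, and -0.25 after the GC correction, under which PAXX, RIF1 and FEN1 no longer passed and BRCA2 and BLM did. Relative to WT hypoxia, CCAR2 KO had 4 higher genes, against 17.1% of all 21158 genes tested, and 19 lower genes, against 17.8%. Among the 17104 genes with at least 10 counts in every library, 3625 were higher and 3854 lower. The repair genes with an absolute log2 fold change of 0.5 as well were ERCC2 and FANCD2, both lower, where that rule took 7.08% of all genes as higher and 7.88% as lower. ERCC2 differed most, with its 4 hypoxia libraries at 198 CPM or more and its 4 knockout libraries at 141 CPM or less (-0.63 ± 0.05, adjusted p = 3.8e-06). Against the shared normoxia libraries it was 0.36 in hypoxia and -0.26 in the knockout. ERCC1, whose gene lies on chromosome 19 (45407333 to 45478828) near ERCC2 (45349837 to 45370918), was -0.49 ± 0.05 (adjusted p = 3.3e-05), with 0.23 in hypoxia and -0.24 in the knockout. FANCD2 was -0.53 ± 0.05 (adjusted p = 1.6e-05), LIG1 -0.42 ± 0.05 (adjusted p = 3.6e-05) and BRCA1 -0.41 ± 0.06 (adjusted p = 0.0002), each of them higher in hypoxia and without a passing change in the knockout. MRE11 was -0.40 ± 0.05 (adjusted p = 8.7e-05), at 46.1, 48.8, 48.7 and 51.0 CPM in hypoxia. The higher genes were WRN (0.44 ± 0.07, adjusted p = 0.00044), NBN (0.40 ± 0.07, adjusted p = 0.00074), LIG3 (0.27 ± 0.06, adjusted p = 0.00316) and RIF1 (0.19 ± 0.07, adjusted p = 0.0444). RIF1 was lost when WT hypoxia replicate 2 or 4 or CCAR2 KO replicate 1, 2 or 4 was left out (adjusted p up to 0.131). RAD50 (-0.25 ± 0.07) was lost without WT hypoxia replicate 1 or 3 or CCAR2 KO replicate 2, 3 or 4 (up to 0.0641), and ERCC3 (-0.14 ± 0.04) without WT hypoxia replicate 4 or CCAR2 KO replicate 1 or 4 (up to 0.0806).

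Genes that differed from WT normoxia in the same direction in both comparisons included LIG4, at -0.45 in hypoxia and -0.27 in the knockout, and APEX1, at -0.30 and -0.23. XRCC5 was at -0.27 and -0.18 and PARP1 at -0.16 and -0.33. Since both rest on the same 4 normoxia libraries, these pairs of values are not independent. In the direct comparison of the knockout with hypoxia, LIG4 (0.17 ± 0.09, adjusted p = 0.158), APEX1 (0.05 ± 0.04, adjusted p = 0.355) and XRCC5 (0.08 ± 0.06, adjusted p = 0.352) did not pass, and PARP1 was lower in the knockout (-0.18 ± 0.04, adjusted p = 0.0066). Of the genes that passed in neither comparison with normoxia, PRKDC, MDC1, ATM, ATR and BRCA2 varied between replicates by 10.2% to 12.5% of their WT normoxia mean.

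The balance between genes whose proteins work as partners was examined as the log2 ratio of their CPM per kb in each library, for 13 pairs and without a test. BRCA1 to BARD1 had a ratio of -0.50, -0.42, -0.38 and -0.40 in WT normoxia and 0.24, 0.23, 0.04 and 0.44 in WT hypoxia, a higher ratio in all 4 hypoxia libraries. In CCAR2 KO the ratio was -0.38, -0.32, -0.24 and -0.34. Its sign rests on the division by exon length (9187 and 6067 bases), as undivided BRCA1 CPM were above BARD1 CPM in every library. NBN to RAD50 went from 2.38, 2.30, 2.27 and 2.29 in normoxia to 1.74, 2.14, 1.72 and 1.76 in hypoxia, and to 2.51, 2.55, 2.42 and 2.47 in the knockout, which lay above both. XRCC1 to LIG3, scaffold to ligase, rose from a mean of 0.79 to 1.39 in hypoxia with no overlap, and was 0.50 to 0.91 in the knockout. Of their exonic bases, 24% for XRCC1 and 30.5% for LIG3 overlap other genes, so this ratio too is uncertain. ERCC2 to ERCC3, the TFIIH helicases, rose from 1.51 to 1.89, and FANCD2 to FANCI from -1.50 to -1.24, again with no overlap between normoxia and hypoxia. The Ku ratio XRCC5 to XRCC6 was slightly lower in hypoxia, at -1.36 beside -1.26. BARD1 and LIG3 had a lower GC content than their partners (38.0% against 41.9% and 47.7% against 58.3%), and the ratios were not corrected for GC content. In the knockout, MRE11 to RAD50 was lower than in normoxia (0.61 to 0.80 against 0.87 to 1.02). This ratio and that of NBN rest on RAD50, whose level is uncertain because of its shared exons. In the same cells ATM to ATR was higher (0.13 to 0.25 against -0.03 to 0.06). The remaining pairs overlapped with WT normoxia in both conditions.

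**Figure D5:**
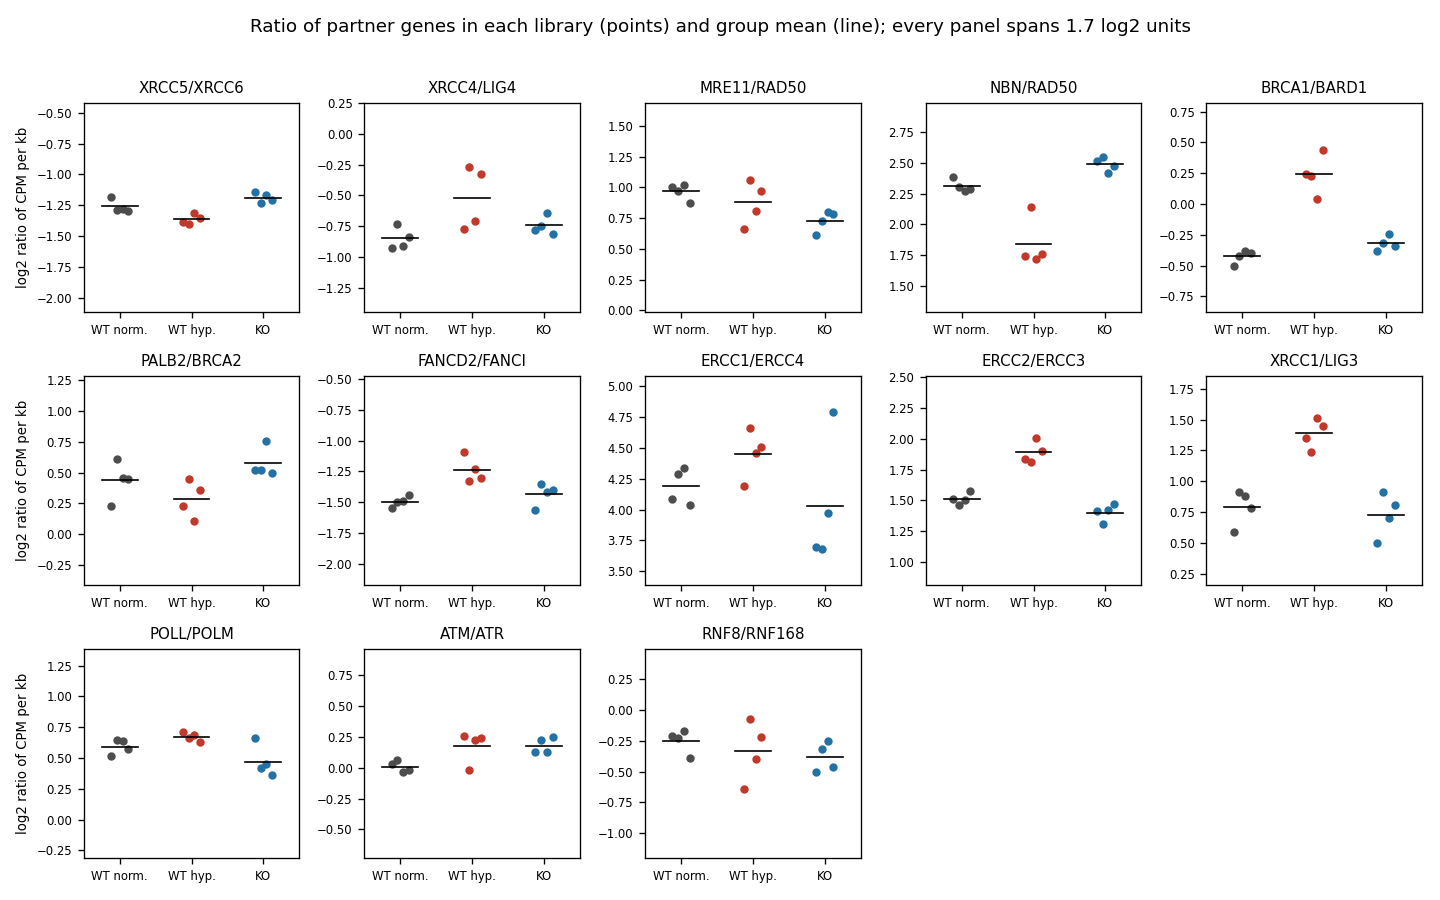
Log2 ratio of CPM per kb for 13 pairs of partner genes, with a point per library and a line at the mean of each group of 4; every panel spans the same 1.7 log2 units. The BRCA1 to BARD1 points lie below 0 in WT normoxia and CCAR2 KO and above 0 in WT hypoxia, and the NBN to RAD50 points of WT hypoxia lie below those of both other groups.

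A wider list of 110 further genes of the same pathways, of which 109 were tested, gave counts to set beside those of the 50. Both were chosen with earlier results of these data known, so the wider list is not an independent reference. In hypoxia 21 were higher and 21 lower, or 19.3% each, against 11.6% and 12% of all genes tested. The median log2 fold change of the list was 0.00. The largest changes were in nucleotide excision repair, GTF2H2 of TFIIH at -0.67 ± 0.14 (adjusted p = 0.00586), a gene with near-identical copies, and the lesion recognition gene DDB2 at 0.57 ± 0.07 (adjusted p = 0.000309). In CCAR2 KO 7 or 6.4% were higher and 43 or 39.4% lower, against 14.9% and 15.4% of all genes tested, with a median of -0.12. Among the 15 of that list that act in mismatch repair and its clamp, clamp loader and polymerase, 11 or 73.3% were lower and 2 or 13.3% higher. The mismatch repair genes of the 50, MSH6 and PMS2, did not pass. In the rest of the wider list, lower genes also outnumbered higher ones in each pathway. They were 6 against 2 of 12 in end joining and 10 against 1 of 32 in homologous recombination. The Fanconi pathway had 6 against 1 of 18, nucleotide excision repair 7 against 1 of 19 and base excision repair 3 against 0 of 13. The largest changes were POLD4, a subunit of the replicative polymerase, at 0.66 ± 0.11 (adjusted p = 0.000533), and RPA3, the smallest subunit of the single-strand binding protein, at -0.50 ± 0.07 (adjusted p = 0.000214). Compared directly with hypoxia, the knockout had 12 higher (11%) and 41 lower (37.6%) genes of the 109, against 17.1% and 17.8% of all genes tested.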

How the data were processed

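Poly-A RNA of 12 MDA-MB-231 libraries was sequenced as paired-end reads. According to the methods, the authors aligned reads with Hisat2 and quantified genes with StringTie, while the submitters' processing notes list HISAT2, SAMtools and featureCounts. The genome build, annotation and strand setting are not given in the sources used here. The deposited values are estimated counts per gene, whole numbers that the authors did not scale to library size, and how coverage became counts is not stated. Their sums, between 68599412 and 213743693, are therefore not taken as numbers of reads, and interval estimates from them were not made. Genotype and treatment in the labels set the groups, and no library was left out. No replicate was counted as a copy of another: chi-square over genes, divided by its degrees of freedom, lay from 14 to 97.6 between libraries of a group, on values that may not be read numbers.

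Each pair of groups was fitted on its 8 libraries with edgeR 4.0.16 in R 4.3.3 (TMM, filterByExpr, glmQLFit, glmQLFTest) with Benjamini-Hochberg adjustment over all genes tested. A gene passed at an adjusted p under 0.05, and a stricter rule also asked for a log2 fold change of 0.5 or more in size. CPM were taken over library sizes multiplied by the TMM factors. Exon length, GC content and positions come from GENCODE v29 on GRCh38, matched by Ensembl identifier. Length is that of all merged exons of a gene, and GC content that of its longest transcript. The fit was tested on simulated data with known changes. The alternatives were DESeq2 1.42.0, limma-voom (limma 3.58.1), upper-quartile and RLE normalization, a fit without the filter, a minimum of 10 counts in every library, a replicate block, one fit of all 12 libraries, corrections for GC content and for length (lowess trend of each library, span 0.3), and each library left out in turn.

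The members and lists were chosen with earlier results of these data known. Genes named with library values are the first 14 by absolute log2 fold change in each comparison with WT normoxia and the first 8 in the direct comparison, among those that passed without overlap, and the highest and lowest of each pathway per kilobase. Other members are given because they are members. Up to 2 of the wider list were named per comparison with WT normoxia.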

Additional observations from a re-analysis of the deposited data

Results flagged for a closer look

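In 7 of 156 groups of 4 libraries (50 repair genes, CCAR2 and CA9 in 3 conditions), the highest or lowest library stood apart by more than Dixon's critical value allows for the gap divided by the range of the 4. Chance flags about 1 in 20 groups, or 7.8 of 156. WT hypoxia replicate 2 was the library in 4 of the 7. It had 388 CPM of XRCC5 beside 327 to 334 in the other hypoxia libraries (0.891), 618 CPM of XRCC6 beside 498 to 514 (0.867), 17.5 CPM of XRCC4 beside 12.6 to 13.2 (0.885) and 113 CPM of UNG beside 98.3 to 101 (0.834). CCAR2 KO replicate 1 had 393 CPM of XRCC5 beside 355 to 360 (0.859). WT normoxia replicate 1 had 33.1 CPM of BRCA1 beside 30.6 to 31.0 (0.831) and 30.9 CPM of BARD1 beside 26.6 to 27.0 (0.911). The cause was not tested.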

How the results depend on the processing

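No passing gene changed direction under any alternative. Of the genes that passed, 12 of 21 in hypoxia, 14 of 17 in CCAR2 KO and 18 of 23 in CCAR2 KO against WT hypoxia passed under all of them. Besides the GC correction and the left-out libraries given above, the calls lost were FANCA and FANCI in hypoxia with no filter, RIF1, PARP1 and LIG3 in hypoxia with upper-quartile normalization, FANCI in the knockout with limma-voom, and RAD50 and FANCI in the knockout with all 12 libraries in one fit or with upper-quartile normalization. In CCAR2 KO against WT hypoxia, PAXX, RIF1 and FEN1 were lost with the GC correction, and RIF1 also with the length correction, no filter, the replicate block and upper-quartile normalization. With the GC correction, 1 gene in hypoxia (FANCD2) passed the stricter rule on log2 fold change, and 1 gene (ATM) was higher in CCAR2 KO. With each library left out in turn, the hypoxia counts were 9 to 12 higher and 7 to 14 lower, with 0 to 1 gene past that rule (WRN, without WT normoxia replicate 2). The knockout counts were 0 to 2 higher and 14 to 19 lower, and those of the knockout against hypoxia 3 to 4 higher and 17 to 20 lower. Over all genes tested, these fits gave 1915 to 2949 higher and 1788 to 3658 lower in hypoxia. They gave 2566 to 3250 and 2771 to 3339 in the knockout, and 3118 to 4017 and 3106 to 3997 for the knockout against hypoxia. DESeq2 found no higher repair gene in CCAR2 KO and 19 lower, and limma-voom none and 17. Of all 21410 genes tested, DESeq2 found 3538 higher and 3700 lower and limma-voom 3357 and 3367, beside 3199 and 3307 with edgeR. Neither DESeq2 nor limma-voom found a repair gene past the stricter rule in either comparison with WT normoxia.

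Libraries with the same replicate number did not deviate together. After group means were removed, same-numbered libraries correlated between -0.025 and 0.065. The replicate block gave 12 higher and 9 lower genes in hypoxia, 1 higher (ATM) and 21 lower in CCAR2 KO, and 3 higher and 19 lower between the knockout and hypoxia. Over all genes tested it gave 2574 higher and 3052 lower of 21776 in hypoxia and 3446 and 3660 of 21410 in CCAR2 KO. Between the knockout and hypoxia it gave 3694 and 3765 of 21158. With 4 libraries per group and 1 guide, what is shared by the knockout cells and what comes from CCAR2 cannot be told apart.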
